A study of Mus musculus with 9 samples.

Results

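Integrins and laminins are described here in mouse heart RNA. The genes were chosen by name from the coding RNA table: all integrin alpha and beta chains and all laminin alpha, beta and gamma chains whose symbols match Itga, Itgb1 to Itgb8 and Lama, Lamb or Lamc. This gave 37 of 22564 table entries, with 18 integrin alpha, 8 integrin beta and 11 laminin genes. The rule reads symbols and no measured values.

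Laminins are secreted trimers of an alpha, a beta and a gamma chain that form the polymer of basement membranes, the matrix sheets that surround cardiomyocytes and underlie endothelium. Integrins are paired alpha and beta chains in the cell membrane that bind laminin, collagen or proteins with an Arg-Gly-Asp (RGD) sequence and tie them to the actin cytoskeleton. The alpha chain of a laminin sets most of its receptor binding, and the integrin alpha chain sets most of the ligand choice.

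Hearts of wild type mice were taken before birth on embryonic day 18 (E18), on postnatal day 3 (3d) and at 8 weeks (8w), with 3 libraries of total RNA per stage and no treatment. The labels call the tissue heart and also use the word cardiocytes, and the study set out to compare embryonic, neonatal and adult transcription. The 3 libraries of a stage are called biological replicates, without a statement that each came from its own animal, so p-values measure the spread between these samples, which may be technical. The sources used here give neither sex nor strain, and the age groups differ in no other labelled way.

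Levels are FPKM, fragments scaled by library size and by transcript length, and can be compared between genes. Each library held 12196703 to 15612508 estimated fragments, and log FPKM of libraries of 1 stage correlated across genes with r of 0.963 to 0.991. The 10 cardiomyocyte markers summed to 15435 to 15714 FPKM at E18, 15085 to 17355 at 3d and 24531 to 26801 at 8w, with the giant sarcomere gene Ttn listed at 0 in every library. Markers of fibroblasts (9 genes, 486 to 1234 FPKM in sum), endothelium (9 genes, 563 to 1092) and smooth muscle and pericytes (9 genes, 445 to 558) were detected throughout, so the libraries hold RNA of several cell types. In bulk RNA, fewer cells of a type and less RNA per cell cannot be told apart. Markers of lung epithelium (6 genes) summed to at most 0.460 FPKM at E18, to 0.447, 57.1 and 32.3 FPKM in the 3d libraries and to 0.0195, 103 and 0 FPKM in the 8w libraries. In 3d replicate 1, lncRNA entries took 24.6% of all FPKM, against 15.6% to 19.3% in the other libraries.

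The promoters of 3 genes that the results turn on are shown first: the laminin beta chains Lamb1 and Lamb2, which moved in opposite directions, and Itgb6, which had the largest change of the tested members. Each is the 250 bases before the gene's start in RefSeq (GRCm38.p6), in lower case with motif letters in capitals, read 5′ to 3′ on the gene's strand. Lamb1 lies on the plus strand (chr12:31265043-31265292), Lamb2 on the plus strand (chr9:108479612-108479861) and Itgb6 on the minus strand (chr2:60722604-60722853). The table holds another window for Itgb6 (chr2:60673694-60673943, 38.0% GC), not printed, and the one shown spans the start of the GENCODE gene. The Lamb1 and Lamb2 windows also span the GENCODE starts, at 31265234 and 108479736, so part of each lies inside the annotated gene.
Lamb1: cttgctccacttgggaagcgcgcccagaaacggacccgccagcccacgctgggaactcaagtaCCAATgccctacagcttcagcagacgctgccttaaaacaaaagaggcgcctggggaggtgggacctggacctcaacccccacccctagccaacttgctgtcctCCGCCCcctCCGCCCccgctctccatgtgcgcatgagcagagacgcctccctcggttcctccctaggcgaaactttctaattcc
Lamb2: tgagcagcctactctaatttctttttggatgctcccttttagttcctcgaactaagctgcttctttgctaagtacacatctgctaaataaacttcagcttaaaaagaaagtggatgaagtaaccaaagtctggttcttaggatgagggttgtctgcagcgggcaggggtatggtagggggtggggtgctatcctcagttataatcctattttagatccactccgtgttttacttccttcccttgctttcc
Itgb6: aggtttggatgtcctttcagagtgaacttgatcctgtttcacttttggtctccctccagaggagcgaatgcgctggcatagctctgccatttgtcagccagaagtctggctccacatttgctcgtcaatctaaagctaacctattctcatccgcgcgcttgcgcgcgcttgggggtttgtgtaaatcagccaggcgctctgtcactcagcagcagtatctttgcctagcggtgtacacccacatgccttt
The capitals in the Lamb1 window mark 1 CCAAT box and 2 GC boxes. Its GC content was 62.0%, against 43.6% for Lamb2 and 52.0% for this window of Itgb6, and a median of 52.4% over all 32851 windows in the RefSeq table. The letters searched on both strands were GGGCGG (GC box, in 32.7% of all windows), CCAAT (33.8%), TATAAA (12.4%) and TGANTCA (AP-1, 6.75%), of which none overlapped another in the Lamb1 window. The Lamb2 window and both Itgb6 windows held none of these letter strings, which says nothing on any factor. For 23 of the 37 genes the table held 26 windows, of which 9 had a GC box, 4 a CCAAT box, 0 the TATAAA string and 1 the AP-1 string.

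Of the 37 genes, 27 had a mean of at least 1 FPKM over the 9 libraries and were tested with the 11930 coding genes that passed the same filter. The 10 others were Itga10, Itga11, Itgad, Itgae, Itgal, Itgax, Itgb4, Itgb7, Lama1 and Lamc3. Their highest stage mean was 0.905 FPKM and their highest library value 1.13 FPKM, both of Itga11 at 8w, where the E18 and 3d values were 0.0950 to 0.148 FPKM. A gene can pass this filter through 1 stage alone, and Itgb6 and Itgb2 did so through 8w. At E18, 24 members had a mean of at least 1 FPKM and 15 of at least 5, at 3d 25 and 16, and at 8w 24 and 15. No member was at a mean of 0 in any stage.

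Summed over all chains, laminin RNA was lower in the adult heart, while the integrin sums of 3d and 8w overlapped. The 11 laminin genes summed to 433, 434 and 418 FPKM at E18, 390.3, 389 and 386 FPKM at 3d and 239, 263 and 236 FPKM at 8w. The 3 stages did not overlap in this sum. The 26 integrin genes summed to 596, 644 and 608 FPKM at E18, 505, 581 and 573 FPKM at 3d and 523, 559 and 505 FPKM at 8w. These sums are descriptions and were not tested.

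Changes were tested with limma-trend on log2(FPKM + 1), with p-values adjusted by Benjamini-Hochberg over all 11930 genes and a call at an adjusted p under 0.05. Fold changes are on that scale, which understates the change of genes near 1 FPKM. From E18 to 3d, 6 of the 27 tested members were called, beside 26.4% of all tested genes. Lama2 rose, beside 5.0% of all genes higher, and Itgav, Itga1, Itga2, Itga6 and Lama4 fell, beside 21.4% lower. Between 3d and 8w, 16 of 27 were called, beside 58.4% of all genes, with 6 higher (21.4% of all genes) and 10 lower (37.1%). From E18 to 8w, 20 of 27 were called, beside 65.1%, with 7 higher (17.8%) and 13 lower (47.3%). The shares of members called were near those of all genes and are no result about these families. The 3 comparisons share libraries.

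The median log2 fold change of all tested genes was −0.15 from E18 to 3d, −0.18 from 3d to 8w and −0.32 from E18 to 8w, and that of the 27 members was −0.05, −0.17 and −0.42. Scalings that remove the shift of all genes changed the split of calls. For 3d against E18 the split of 1 higher and 5 lower became 2 and 2 with quantile normalization or median centring, and 4 and 3 with edgeR or DESeq2 on the estimated counts. For 8w against 3d, 6 and 10 became 8 and 9 with quantile normalization or median centring, 9 and 9 with edgeR and 9 and 10 with DESeq2. For 8w against E18, 7 and 13 became 10 and 11 with quantile normalization and 10 and 10 with median centring, edgeR or DESeq2.

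**Figure D1:**
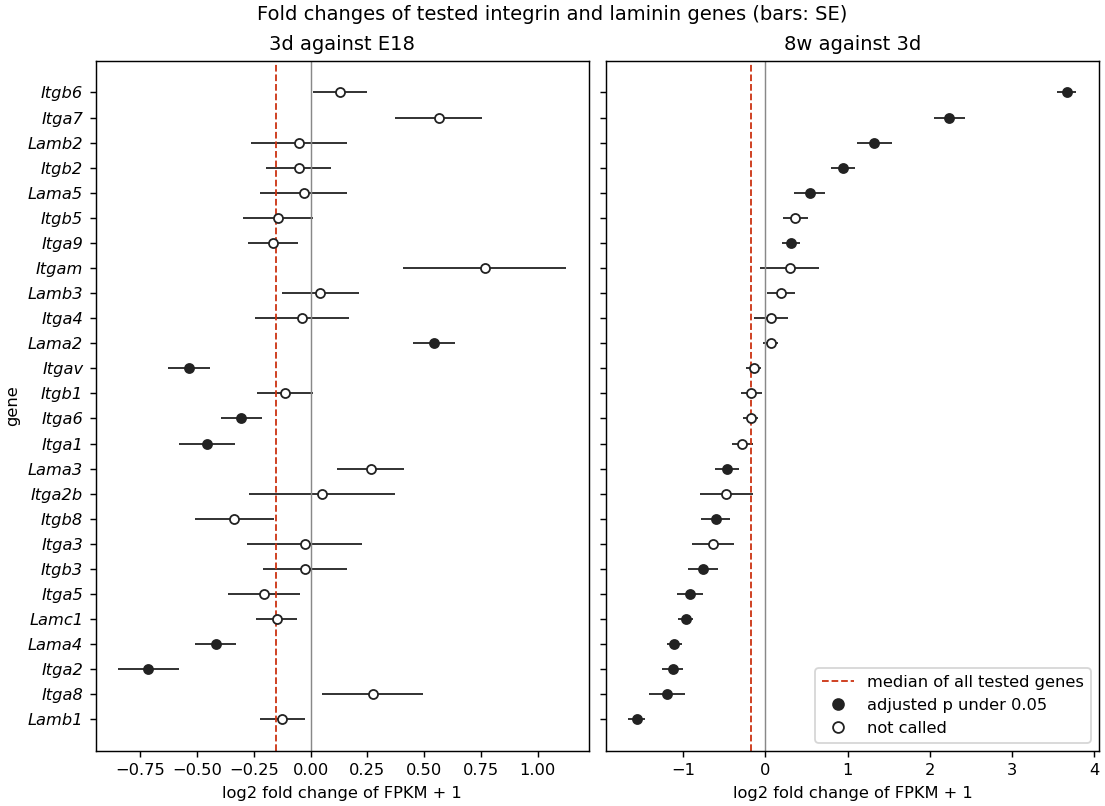
Log2 fold changes of FPKM + 1 (horizontal axes, bars are SE) of 26 of the 27 tested members for 3d against E18 (left) and 8w against 3d (right), ordered by the right panel; filled points passed an adjusted p of 0.05 and the dashed line is the median of all tested genes. Itgb6, Itga7 and Lamb2 stand at the upper end on the right with 3.66, 2.24 and 1.33, and Lamb1 at the lower end with −1.56, while the changes on the left stay between −0.71 and 0.77.

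The laminin alpha chains shifted from Lama4 to Lama2 in relative level. Lama2 (chromosome 10, 26980036 to 27619758), the alpha chain of muscle basement membranes, was at 24.7, 25.3 and 24.8 FPKM at E18, 36, 37.1 and 37.3 at 3d and 37.3, 43.5 and 35.4 at 8w. All 3d and 8w libraries were above all E18 libraries, and 3d and 8w overlapped. Lama2 rose from E18 to 3d by 0.54 ± 0.09 (SE) on the log2 scale (adjusted p = 0.0026), and from 3d to 8w its value of 0.07 ± 0.09 was not called (adjusted p = 0.561), though edgeR, DESeq2 and median centring called it higher there.

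Lama4 (chromosome 10, 38965515 to 39110188), known from the basement membranes of vessels and muscle, was at 115, 112 and 113 FPKM at E18, 91, 83.2 and 79.8 at 3d and 39.2, 42.4 and 35.1 at 8w. The 3 stages did not overlap, and every step was downward. The first step measured -0.42 ± 0.09 on the log2 scale (adjusted p = 0.00852) and the second -1.10 ± 0.09 (adjusted p = 3.25e-06). With quantile normalization the first step was −0.20 and not called (adjusted p = 0.143), as with median centring (−0.24, adjusted p = 0.0780).

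Lama5 (chromosome 2, 180176373 to 180225859), a widely expressed alpha chain, was at 9.78, 8.94 and 8.72 FPKM at E18, 12.8, 7.85 and 7.01 at 3d and 11.5, 13.1 and 16 at 8w. The E18 and 8w libraries did not overlap, while the 3d libraries ran across both, with 3d replicate 1 high. From 3d to 8w Lama5 rose by 0.54 ± 0.19 (adjusted p = 0.0323) and from E18 to 8w by 0.51 ± 0.19 (adjusted p = 0.0371). Both calls ended with no filter on low values. The call from 3d to 8w also ended with only these 2 stages in the fit, without 3d replicate 2 or 3 and without 8w replicate 2 or 3, and that from E18 to 8w ended without E18 replicate 1, 2 or 3 and without 8w replicate 2 or 3 (adjusted p of up to 0.136 over its alternatives). Lama3, an epithelial alpha chain, was at 1.09 ± 0.246 (SD, n = 3), 1.51 ± 0.284 and 0.808 ± 0.00853 FPKM at the 3 stages and fell from 3d to 8w by -0.46 ± 0.15 on the log2 scale (adjusted p = 0.019). That call ended without 3d replicate 1 and with quantile normalization (−0.10, adjusted p = 0.571) or median centring (−0.29, adjusted p = 0.110). From E18 to 3d the Lama3 value of 0.26 ± 0.15 was not called. There edgeR (0.66, adjusted p = 0.0211) and DESeq2 (0.64, adjusted p = 0.00781) called it higher. Lama1, the alpha chain of early embryos, stayed at or below 0.0535 FPKM in every library.

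Lamb1 fell and Lamb2 rose between 3d and 8w, and Lamb2 was the higher of the pair in every adult library and the lower in every younger one. Lamb1 (chromosome 12, 31265234 to 31329644), the beta chain of most embryonic basement membranes, was at 133, 137 and 128 FPKM at E18, 107, 126 and 134 at 3d and 42.1, 41.9 and 37.6 at 8w. The adult libraries were below all others, and E18 and 3d overlapped. Lamb1 fell from 3d to 8w by -1.56 ± 0.10 on the log2 scale (adjusted p = 4.50e-07), and the 3d mean was 3.01 times the adult mean.

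Lamb2 (chromosome 9, 108479736 to 108490530), the beta chain known from neuromuscular junctions, vessel walls and kidney filters, was at 21.4, 23.6 and 22.4 FPKM at E18, 31.3, 21.2 and 15.2 at 3d and 46.1, 62.2 and 60.5 at 8w. The adult libraries were above all others, and the 3d libraries spread on both sides of E18. From 3d to 8w Lamb2 rose by 1.33 ± 0.21 (adjusted p = 3.22e-04), 2.5 times the 3d mean, while from E18 to 3d its value of -0.05 ± 0.21 was not called. Lamb3, an epithelial beta chain, was at 1.13 ± 0.325, 1.19 ± 0.351 and 1.49 ± 0.214 FPKM (SD, n = 3) and was called in no comparison. Its value from E18 to 8w, 0.23 ± 0.17, was called higher with quantile normalization, median centring, edgeR and DESeq2. The locus given for Lamb3 in the table covers 0.31 of the annotated gene length.

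The gamma chain Lamc1 (chromosome 1, 153218922 to 153332786), present in most laminins, was at 122, 119.8 and 114 FPKM at E18, 106, 108 and 107 at 3d and 59, 56 and 48.2 at 8w. The stages did not overlap, and the gap between 3d and 8w was far wider than the spread within either. Lamc1 fell from 3d to 8w by -0.97 ± 0.09 (adjusted p = 7.11e-06), and from E18 to 3d its value of -0.15 ± 0.09 was not called (adjusted p = 0.243), at the median of all genes.

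**Figure D2:**
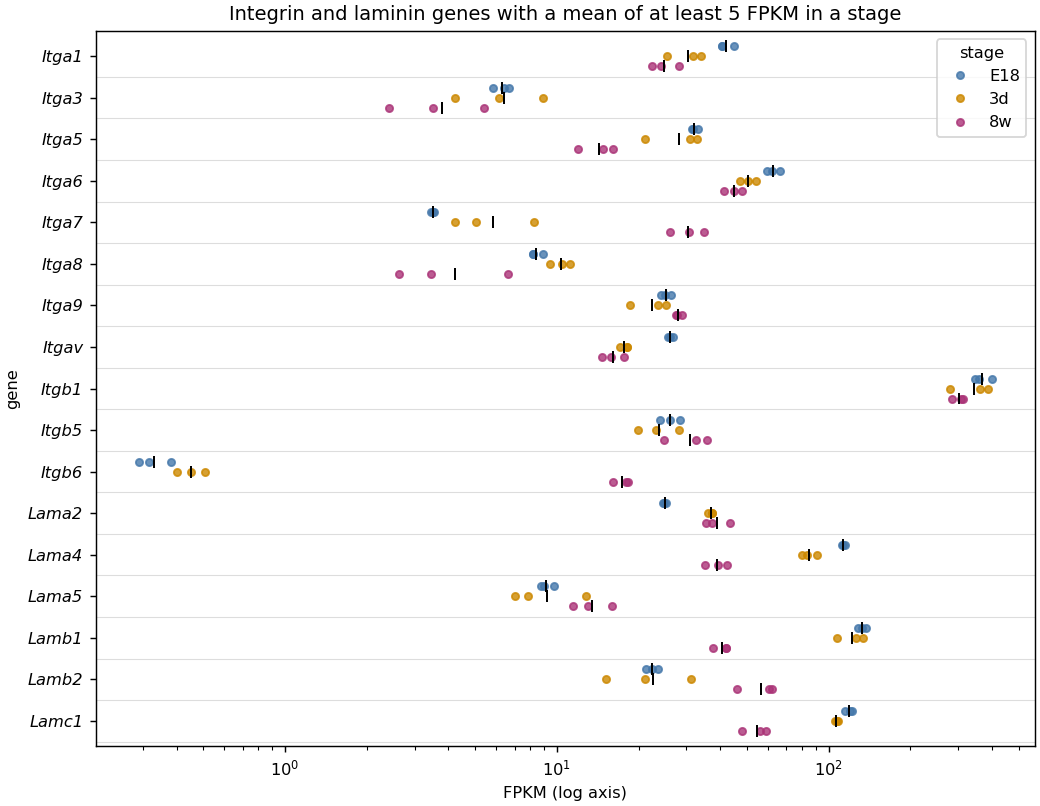
FPKM (log axis) of the 17 members with a mean of at least 5 FPKM in at least 1 stage, 1 point per library coloured by stage, with a black tick at the stage mean. The 8w points of Itgb6, Itga7 and Lamb2 lie right of all others of their gene, those of Lama4, Lamb1 and Lamc1 lie left, and those of Itgb1 lie near the E18 and 3d points.

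Shares within 1 library do not depend on how libraries are scaled, and 5 were fixed for testing with an exact permutation test over all 1680 assignments of the 9 libraries to the stages, without a direction, with p-values adjusted over the 5. The Lama2 share of Lama2, Lama4 and Lama5 was 16.9% ± 0.361 (SD, n = 3) at E18, 28.3% ± 2.24 at 3d and 42.4% ± 1.54 at 8w. No libraries of different stages overlapped (exact p = 0.00357, the smallest the design can give; adjusted p = 0.00893). Comparing 2 stages, 3 libraries against 3 cannot give an exact p below 0.1.

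The Lamb2 share of Lamb1 and Lamb2 was 14.5% ± 0.526 (SD, n = 3) at E18, 15.7% ± 6.30 at 3d and 57.9% ± 4.96 at 8w. Every adult library, from 52.3% to 61.7%, was above every younger one, of which the highest, 3d replicate 1, was at 22.6%. The 3-stage test gave an exact permutation p of 0.0321 and an adjusted p of 0.0536, so this share missed the threshold. Without 3d replicate 1, 2 or 3 the adjusted p was 0.0119, 0.0417 or 0.0134.

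**Figure D3:**
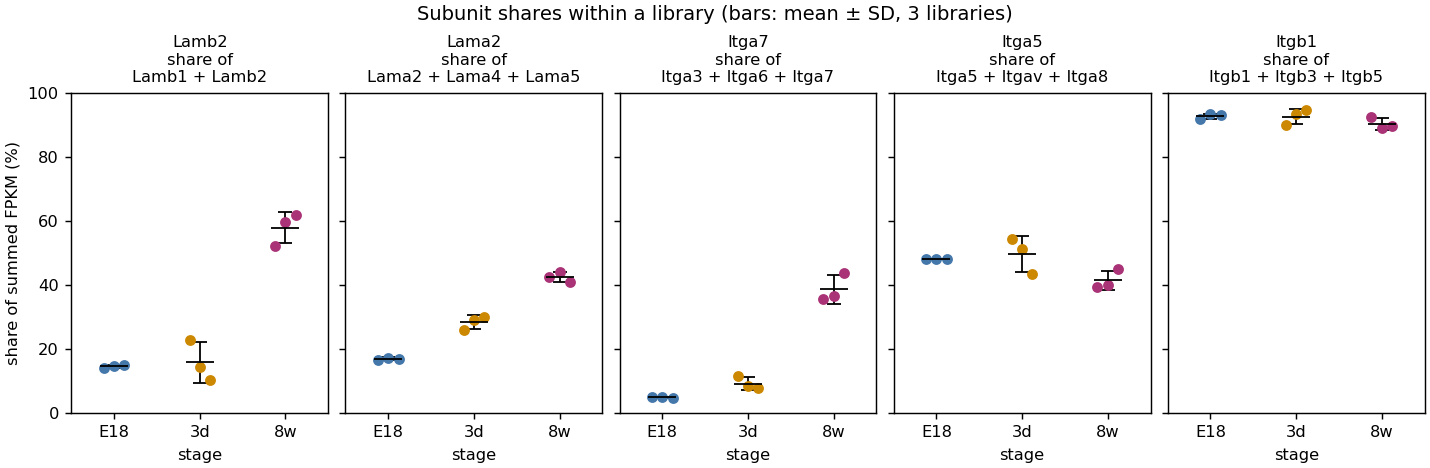
Share of summed FPKM (%) taken by the named chain in each library, by stage; points are libraries and bars are mean ± SD of 3. The Lama2 share climbs from 16.9% to 42.4%, the Itga7 share from 4.83% to 38.6% and the Lamb2 share from 14.5% to 57.9%, and the Itga5 and Itgb1 shares move by less than 10 percentage points.

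Among the laminin-binding integrin alpha chains, Itga7 rose while Itga6 and Itga3 did not. Itga7 (chromosome 10, 128933818 to 128958282), which pairs with Itgb1 as the laminin receptor of adult muscle, was at 3.55, 3.45 and 3.49 FPKM at E18, 8.25, 5.06 and 4.23 at 3d and 26, 30.7 and 34.8 at 8w. The 3 stages did not overlap, and the adult libraries were far above the rest. Itga7 rose from 3d to 8w by 2.24 ± 0.19 (adjusted p = 3.88e-06), 5.22 times the 3d mean. From E18 to 3d its value of 0.56 ± 0.19 missed the threshold (adjusted p = 0.0512), and 8 of its alternatives called it higher, among them edgeR (0.93, adjusted p = 0.00624) and DESeq2. Without 3d replicate 1 that first step was 0.32.

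Itga6 (chromosome 2, 71745616 to 71858416), a laminin receptor chain of endothelium and epithelium as well as muscle, was at 61.9, 59.6 and 66.6 FPKM at E18, 54.1, 50.4 and 47.3 at 3d and 45, 48 and 41.3 at 8w. E18 lay above both later stages, which overlapped. From E18 to 3d Itga6 fell by -0.30 ± 0.09 (adjusted p = 0.0334) and from E18 to 8w by -0.48 ± 0.09 (adjusted p = 9.46e-04). The first call ended without E18 replicate 1, 2 or 3 and without 3d replicate 2 or 3, and without the trend in limma (adjusted p = 0.0542). Median centring, edgeR and DESeq2 ended both calls, and quantile normalization ended the first. A lncRNA entry, BC024571, overlaps Itga6 exons in sense, and how reads were divided between it and Itga6 was not tested.

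Itga3, known from epithelia and vessels, was at 6.42, 6.68 and 5.83 FPKM at E18, 8.87, 6.15 and 4.23 at 3d and 2.42, 5.42 and 3.51 at 8w. The 3d libraries overlapped both other stages. Itga3 fell from E18 to 8w by -0.66 ± 0.25 (adjusted p = 0.0395), a call that ended without any 1 of E18 replicates 1, 2 and 3, 3d replicate 2, and 8w replicates 1 and 3, with no filter on low values, and with all 4 other scalings (adjusted p of up to 0.316 over its alternatives). The Itga7 share of Itga3, Itga6 and Itga7 was 4.83% ± 0.193 (SD, n = 3) at E18, 9.13% ± 2.15 at 3d and 38.6% ± 4.51 at 8w. The stages did not overlap in this share (exact permutation p = 0.00357, adjusted p = 0.00893).

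Of the 4 RGD-binding alpha chains, 3 fell from E18 to 8w and 0 rose, beside 47.3% of all genes lower and 17.8% higher. Itga5, which pairs with Itgb1 as the classic fibronectin receptor, was at 31.3, 31.8 and 33.1 FPKM at E18, 32.7, 30.8 and 21.1 at 3d and 12, 16.1 and 14.7 at 8w. The adult libraries were below all others, and 3d replicate 3 was the lowest of the 6 younger libraries. Itga5 fell from 3d to 8w by -0.92 ± 0.16 (adjusted p = 5.62e-04).

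Itgav, which pairs with several beta chains and binds vitronectin and other RGD ligands, was at 25.6, 26.1 and 26.8 FPKM at E18, 17, 18.1 and 18.2 at 3d and 15.9, 17.7 and 14.7 at 8w. All E18 libraries were above all later ones, and 3d and 8w overlapped. Itgav fell from E18 to 3d by -0.54 ± 0.09 (adjusted p = 0.00285), and this call held under every alternative run.

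Itga8, a receptor chain for nephronectin, was at 8.18, 8.16 and 8.91 FPKM at E18, 10.5, 11.2 and 9.48 at 3d and 2.62, 6.6 and 3.45 at 8w. Levels were highest at 3d and lowest at 8w, with no overlap between any stages. Itga8 fell from 3d to 8w by -1.19 ± 0.22 (adjusted p = 9.21e-04), and from E18 to 3d its value of 0.27 ± 0.22 was not called. The fall from E18 to 8w (-0.92 ± 0.22, adjusted p = 0.00385) was lost with edgeR (adjusted p = 0.0833) and DESeq2 (adjusted p = 0.159).

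The Itga5 share of Itga5, Itgav and Itga8 was 48.1% ± 0.0117 (SD, n = 3) at E18, 49.6% ± 5.71 at 3d and 41.4% ± 3.07 at 8w. The 3d and 8w libraries overlapped in it, and the 3-stage test was not passed (exact permutation p = 0.104, adjusted p = 0.129). Without 3d replicate 3 the adjusted p was 0.00595. Itga2b, the platelet fibrinogen receptor chain, was at 1.75, 0.494 and 1.56 FPKM at E18, 0.828, 1.49 and 1.56 at 3d and 0.149, 1.66 and 0.417 at 8w. It was called in no comparison, but without 8w replicate 2 it was called lower from 3d to 8w (−0.83, adjusted p = 0.0299). The 9 platelet and megakaryocyte markers summed to 25.8 FPKM in 8w replicate 2, against 9.53 and 13.5 in the other adult libraries, and their part in the Itga2b values was not tested.

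Both tested collagen-binding alpha chains fell from E18 to 3d and from E18 to 8w, beside 21.4% and 47.3% of all genes lower. With 2 genes, the count is no result about the group. Itga1 was at 40.4, 45 and 40.4 FPKM at E18, 25.5, 34.1 and 31.7 at 3d and 24.1, 28.1 and 22.4 at 8w. E18 lay above both later stages, which overlapped. Itga1 fell from E18 to 3d by -0.46 ± 0.12 (adjusted p = 0.0211) and from E18 to 8w by -0.74 ± 0.12 (adjusted p = 3.72e-04). The first call ended without E18 replicate 1, 2 or 3 and with all 4 other scalings (adjusted p of up to 0.164), and the second did not. Itga2, whose gene lies 21.0 kb from Itga1 on chromosome 13, was at 3.39 ± 0.448 (SD, n = 3), 1.67 ± 0.057 and 0.224 ± 0.0788 FPKM and fell at both steps, by -0.71 ± 0.13 (adjusted p = 0.00406) and -1.13 ± 0.13 (adjusted p = 3.96e-05). The E18 mean of Itga2 was 15.1 times the adult mean, a wider ratio than the log2 scale with its added 1 shows.

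Itga9, a receptor chain for tenascin and VCAM-1, was at 25.1, 24.2 and 26.3 FPKM at E18, 25.3, 23.5 and 18.7 at 3d and 28.8, 27.6 and 27.4 at 8w. The adult libraries were just above the rest, and E18 and 3d overlapped. Itga9 rose from 3d to 8w by 0.31 ± 0.11 (adjusted p = 0.0329). The call ended without 3d replicate 3, where the value was 0.19, and without 8w replicate 1, 2 or 3. It also ended with only the 2 stages in the fit (adjusted p of up to 0.105 over its alternatives). From E18 to 8w the value of 0.15 ± 0.11 was not called, but quantile normalization, median centring, edgeR and DESeq2 called it higher. Itga4, which binds VCAM-1 and fibronectin, ran from 1.07 to 2.29 FPKM over the 9 libraries and was called in no comparison.

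Itgb1 (chromosome 8, 128685654 to 128733200), the partner of most laminin and collagen receptors, was the most abundant member by far. It was at 346, 399 and 357 FPKM at E18, 279, 362 and 386 at 3d and 313, 307 and 286 at 8w, or 59.6%, 61.9% and 57.0% of the summed integrin FPKM. The adult libraries were below E18 and within the range of 3d. No comparison called Itgb1, with log2 fold changes of -0.11 ± 0.12, -0.17 ± 0.12 and -0.28 ± 0.12 (adjusted p = 0.542, 0.266 and 0.0682). Without 3d replicate 1 it was called lower at 8w against both younger stages, as it was with quantile normalization against 3d and with only the 2 stages in the fit against E18. Its locus in the table is 11 times as long as the annotated gene (Itgal and Itga4, 7.09 and 2.65 times), and whether reads of neighbouring transcripts entered its value was not tested.

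Itgb5, a partner of Itgav, was at 28.5, 26 and 24 FPKM at E18, 28.3, 23.2 and 19.9 at 3d and 24.9, 35.6 and 32.4 at 8w. All 3 stages overlapped. Its value from 3d to 8w was 0.36 ± 0.15 (adjusted p = 0.062), which was called higher with each of the 4 other scalings and without 3d replicate 1 or 8w replicate 1. From E18 to 8w its value of 0.22 ± 0.15 was not called, but the same 4 scalings called it higher. Itgb3, the other widely expressed partner of Itgav, was at 2.82 ± 0.0342 (SD, n = 3), 2.77 ± 0.253 and 1.29 ± 0.681 FPKM and fell from 3d to 8w by -0.76 ± 0.19 (adjusted p = 0.0050). The Itgb1 share of Itgb1, Itgb3 and Itgb5 was 92.7% ± 0.838 (SD, n = 3) at E18, 92.6% ± 2.36 at 3d and 90.3% ± 1.8 at 8w, which did not pass the 3-stage test (exact permutation p = 0.286, adjusted p = 0.286).

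The largest change of any tested member was that of Itgb6 (chromosome 2, 60598292 to 60722643), the partner of Itgav known from epithelia, where the pair binds latent TGF-beta. Itgb6 was at 0.29, 0.382 and 0.316 FPKM at E18, 0.40, 0.45 and 0.509 at 3d and 18.3, 17.9 and 16 at 8w. It was near 0 in all 6 younger libraries and at a like level in all 3 adult ones. The adult mean was 38.4 times the 3d mean. The log2 fold change was 3.66 ± 0.12 (adjusted p = 6.99e-09) on the damped scale and 5.59 with edgeR. Itgb6 passed the filter through its adult level alone, so this test is no independent support for the rise. From E18 to 3d its value of 0.13 ± 0.12 was not called.

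Itgb6 is known from lung epithelium, so its values are set beside the lung marker sums. These were 0.0195, 103 and 0 FPKM in 8w replicates 1, 2 and 3, where Itgb6 was 18.3, 17.9 and 16. The adult libraries with lung markers at or near 0 and the one with high lung markers had a like level of Itgb6. In 3d replicates 2 and 3 the lung markers reached 57.1 and 32.3 FPKM while Itgb6 stayed at 0.450 and 0.509. The part of lung RNA in the Itgb6 values was not tested.

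**Figure D4:**
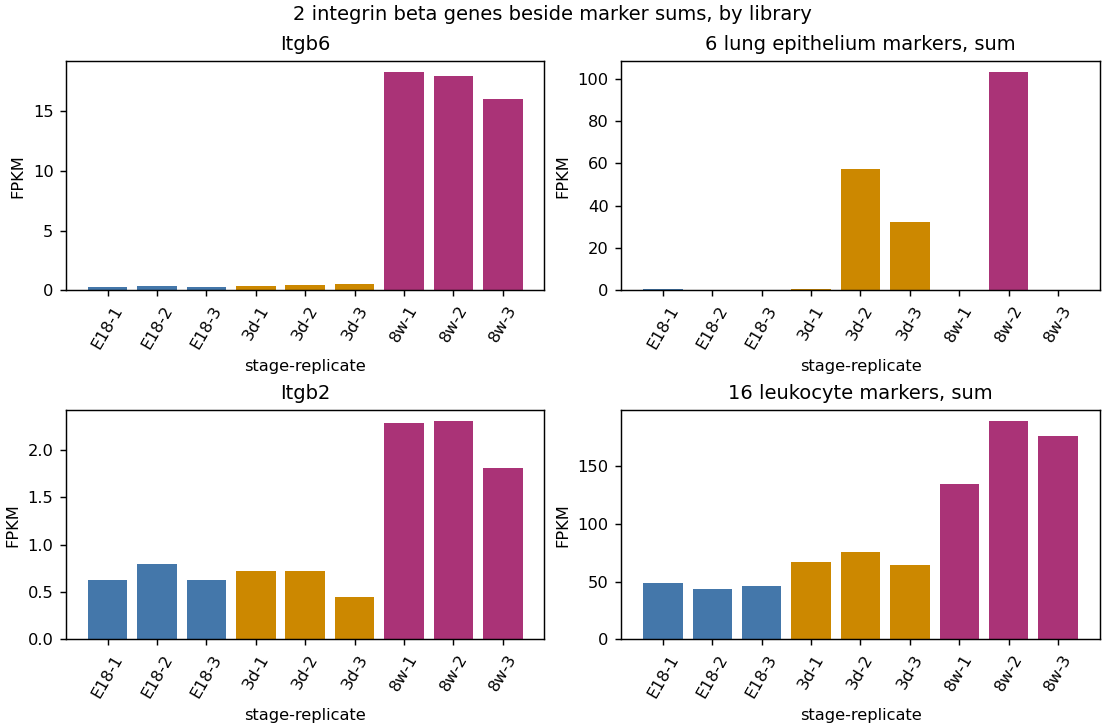
FPKM of Itgb6 and Itgb2 (left) beside the summed FPKM of 6 lung epithelium markers and 16 leukocyte markers (right) in each library, with bars from 0 and a scale of its own in each panel. Itgb6 is at 16 to 18.3 in all adult libraries while the lung sum is high in 8w replicate 2 alone, and Itgb2 and the leukocyte sum are both highest in the 3 adult libraries.

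Itgb8, also a partner of Itgav that binds latent TGF-beta, was at 3.25 ± 0.519 (SD, n = 3), 2.36 ± 0.266 and 1.24 ± 0.463 FPKM. It fell from 3d to 8w by -0.60 ± 0.18 (adjusted p = 0.0127), a call that quantile normalization (−0.29, adjusted p = 0.119), edgeR and DESeq2 ended, and from E18 to 8w by -0.94 ± 0.18 (adjusted p = 7.70e-04), a call that held under every alternative run. Itgb6 and Itgb8 thus moved in opposite directions from E18 to 8w.

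Leukocyte integrins were low throughout, and Itgb2 and Itgam were called higher in the adult. Itgb2, the beta chain of leukocytes, was at 0.684 ± 0.0963 (SD, n = 3), 0.628 ± 0.156 and 2.13 ± 0.277 FPKM and rose from 3d to 8w by 0.94 ± 0.14 (adjusted p = 2.28e-04). Its adult level alone brought it past the filter, so its test is no independent support for the rise. Itgam, its partner in myeloid cells, was at 0.686, 0.53 and 0.533 FPKM at E18, 1.55, 3.41 and 0.728 at 3d and 1.55, 4.63 and 1.51 at 8w. It rose from E18 to 8w by 1.06 ± 0.36 (adjusted p = 0.0233). That call ended with no filter on low values, without E18 replicate 2 or 3, and without 8w replicate 2, where the value was 0.68. Neither single step of Itgam was called in the main test, but edgeR and DESeq2 called both higher. From E18 to 3d they gave 0.88 and 0.87 (adjusted p = 0.0237 and 0.0123). From 3d to 8w they gave 0.86 and 0.85 (adjusted p = 0.00627 and 0.00234). The 16 leukocyte markers in the table summed to 43.4 to 48.9 FPKM at E18, 64.0 to 75.3 at 3d and 134 to 189 at 8w. Of 9 tested leukocyte markers 7 rose and 2 fell from 3d to 8w, beside 21.4% of all genes higher and 37.1% lower. Cd3g and Ms4a1 were among those at 0 in all E18 libraries, and Cd79a and Nkg7 were at 0 in all 3d libraries. The part of the leukocyte markers in the values of Itgb2 and Itgam was not tested. The other leukocyte alpha chains, Itgal, Itgax, Itgad and Itgae, stayed below 1 FPKM in every library, and Itgam, Itgax and Itgad lie within 11.1 kb of their neighbour on chromosome 7.

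Marker lists of other cells are set beside the falling laminins. From 3d to 8w, 21.4% of all genes were higher and 37.1% lower. The 9 fibroblast markers summed to 1033 to 1103 FPKM at E18, 857 to 1234 at 3d and 486 to 663 at 8w, and 5 fell and 2 rose from 3d to 8w. The 7 epicardial markers summed to 55.7 to 63.5, 34.5 to 39.6 and 13.1 to 17.4 FPKM, with 6 lower at that step (5 with quantile normalization) and none at 0. The 9 endothelial markers summed to 563 to 675, 1009 to 1092 and 639 to 942 FPKM, with 1 higher and 4 lower, or 1 and 1 with median centring or edgeR. The 9 smooth muscle and pericyte markers summed to 511 to 558, 445 to 548 and 446 to 522 FPKM, with 3 higher and 3 lower. Beside the rising Itga7, Lamb2 and Itgb6, the cardiomyocyte list had 7 of 9 tested genes higher and 0 lower, or 3 and 2 with quantile normalization. The 8 skeletal muscle markers summed to 14.4 to 25.8, 15.2 to 20.3 and 54.2 to 132 FPKM, with the defining myosins Myh1, Myh2 and Myh4 at 0 in every adult library. The part of any of these lists in the integrin and laminin values was not tested.

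The other genes of the pathway were taken from 4 lists. Of 22 tested integrin linkers, the cytoplasmic proteins that join integrins to actin, 3 rose and 14 fell from 3d to 8w, beside 21.4% of all genes higher and 37.1% lower, with a median log2 fold change of −0.57 against −0.18 over all genes. Tns3, a tensin, fell from 14.6 ± 0.958 (SD, n = 3) to 5.94 ± 0.464 FPKM (adjusted p = 3.11e-06), and Actn1, the non-muscle alpha-actinin, from 26.9 ± 7.04 to 9.26 ± 1.51 FPKM (adjusted p = 4.12e-05). Flna, a filamin, fell from 124 ± 41.1 to 53.1 ± 8.9 FPKM (adjusted p = 5.49e-04). In the other direction, Lims2, a partner of the integrin-linked kinase, rose from 4.94 ± 0.259 FPKM at E18 to 18 ± 0.942 at 8w (adjusted p = 1.47e-06). In the earlier step, from E18 to 3d, 2 linkers rose and 4 fell, beside 5.0% of all genes higher and 21.4% lower.

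Of 15 tested genes for other laminin receptors and the dystrophin complex, which ties laminin to the cytoskeleton of muscle, 7 rose and 7 fell from 3d to 8w (all genes: 21.4% higher, 37.1% lower). Among the 7 that rose were Dag1, which encodes dystroglycan, the sarcoglycans Sgca, Sgcb and Sgcd, sarcospan (Sspn) and Dtna. Sgcb rose from 22.9 ± 1.3 (SD, n = 3) to 57.9 ± 0.543 FPKM (adjusted p = 8.11e-07) and Dtna, a dystrobrevin, from 12.9 ± 2.27 to 30.8 ± 1.36 FPKM (adjusted p = 1.65e-05). Sntb1, a syntrophin, fell from 24.9 ± 0.727 to 2.45 ± 0.141 FPKM (adjusted p = 5.10e-09). The others that fell were Bcam, Sgce, Utrn, Rpsa, Sntb2 and Dmd. With median centring 7 rose and 3 fell, with edgeR 7 and 2, and with quantile normalization 7 and 6.

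All 14 tested basement membrane genes outside the laminins were called from 3d to 8w, beside 58.4% of all genes. Of these 3 were higher (21.4% of all genes) and 11 lower (37.1%), with a median log2 fold change of −0.87 against −0.18 over all genes. Col18a1, the collagen that carries endostatin, fell from 20.6 ± 3.39 (SD, n = 3) to 2.4 ± 0.725 FPKM (adjusted p = 4.61e-07). Nid2, a nidogen that links laminin to collagen IV, fell from 29.3 ± 3.47 to 7.87 ± 1.94 FPKM (adjusted p = 3.45e-06), and Agrn (agrin) from 27.2 ± 5.46 to 8.97 ± 1.67 FPKM (adjusted p = 1.78e-05). The chains Col4a1 and Col4a2 fell too, and Fbln1, Col15a1 and Col4a3 rose. With median centring 9 fell, and with edgeR or quantile normalization 10. In the earlier step, from E18 to 3d, Ntn4 and Col4a5 fell, beside 21.4% of all genes lower. There edgeR and median centring called 2 of this list higher and 0 lower.

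Of 11 tested integrin ligands outside the laminins, 2 rose and 5 fell from 3d to 8w, shares near the 21.4% of all genes higher and 37.1% lower, so the count is no result about this list. Fn1, which encodes fibronectin, the ligand of the Itga5 receptor, fell from 99.7 ± 15.7 (SD, n = 3) to 12.5 ± 2.63 FPKM (adjusted p = 2.29e-07). Tnc (tenascin-C), a ligand of the Itga9 receptor, fell from 7.71 ± 2.89 to 0.562 ± 0.199 FPKM (adjusted p = 4.69e-06). Vtn (vitronectin), a ligand of Itgav receptors, rose from 0.551 ± 0.203 to 8.71 ± 1.93 FPKM (adjusted p = 7.30e-07). Vtn was at 0.392 FPKM at E18 and passed the filter through its adult level alone, so its test is no independent support for the rise. Vcam1 and Spp1, which encode ligands of Itga4 and Itgav receptors, fell from E18 to 3d, Vcam1 from 45.1 ± 1.82 to 23.4 ± 3.05 FPKM (adjusted p = 8.58e-04) and Spp1 from 14.4 ± 2.99 to 5.26 ± 1.26 FPKM (adjusted p = 0.00125).

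**Figure D5:**
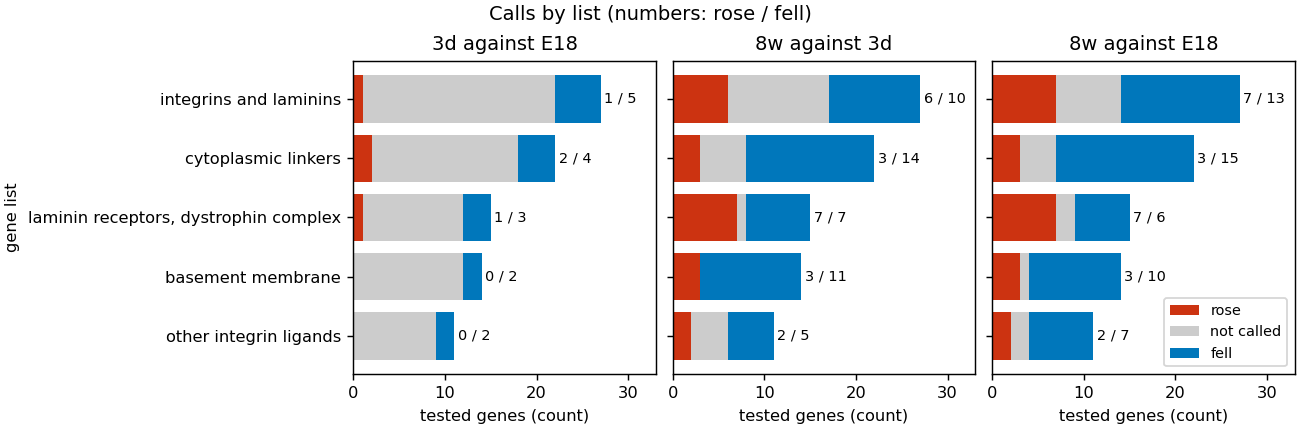
Number of tested genes (horizontal axis) called higher, called lower or not called in each list, for the 3 comparisons. The integrins and laminins have 6 higher and 10 lower from 3d to 8w, the linkers 3 and 14, the dystrophin complex list 7 and 7, the basement membrane list 3 and 11 and the other ligands 2 and 5.

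Other RNA classes at these genes gave little signal. Back-splice junctions of circular RNAs were seen at 8 of the 37 genes, as 13 exonic circRNAs with 37 of 32813 junction reads. By stage these were 10, 10 and 17 reads. The most reads of 1 circRNA was 5, at Itga9, below the minimum of 10 for a test, so none was tested. At Itgb6, 2 junction reads were seen, both in an adult library. Of 32 lncRNA transcripts associated with 16 members, those of 2 genes had a mean of at least 0.5 FPKM. BC024571, overlapping Itga6 exons in sense with a mean of 13.0 FPKM, had log2 fold changes of −0.45 ± 0.17 (SE) from E18 to 3d (adjusted p = 0.167 over 3626 lncRNA genes) and 0.02 ± 0.17 from 3d to 8w (adjusted p = 0.931). Pelo, at Itga1 with a mean of 1.39 FPKM, was called in no comparison either.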

How the data were processed

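Total RNA of 9 heart libraries was sequenced after the Qiagen RNeasy and SMARTER kits, per the labels. Per the submitters' processing notes, cutadapt 1.9.1, HISAT2 2.0.4 and Cuffdiff were used, with the builds GRCm38 and mm10. The sources used here name no annotation release, strand setting or circRNA caller. FPKM per coding gene or lncRNA transcript and library were deposited by the authors, per the file headers. The estimated counts deposited in the same tables carried 1 factor per library: after dividing by it, 94.1% to 94.7% of values under 20 steps were whole within 0.01 of a step, so they were not used as counts in the main test. Back-splice junction read counts were deposited by the authors, and another 9 per-sample columns of that table matched no library by name and were not used.

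Entries with the same symbol were summed, giving 22481 genes. Genes with a mean of at least 1 FPKM (11930) were fitted in R 4.3.3 with the limma 3.58.1 trend method on log2(FPKM + 1), all 9 libraries in 1 fit with 6 residual degrees of freedom. Calls are adjusted p under 0.05 (Benjamini-Hochberg, two-sided). LncRNA genes had a minimum of 0.5 FPKM. Coordinates are those of the GENCODE genes (GRCm38) that carry the table's identifiers, all 37 of which overlapped the deposited locus. Alternatives were pseudocounts of 0.1 and 0.5, other filters, median centring, quantile normalization, no trend in limma, only the 2 stages compared, each library left out in turn, the replicate number as a block, and edgeR 4.0.16 and DESeq2 1.42.0 on the rounded estimated counts. The fit was tested on simulated data.

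Members with at least 5 FPKM in a stage are given by library, other called members by stage, and the rest by range or count, while some genes that enter the counts are not reported here; of each pathway list, up to 3 called genes per comparison with the largest change and at least 5 FPKM in the higher stage are named. The member rule reads symbols only, but members, lists and this rule were chosen with earlier results of these data known.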

Additional observations from a re-analysis of the deposited data

How the results depend on the processing

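Of 42 called member values over the 3 comparisons, 29 kept their call and direction under every alternative run and 13 lost the call under at least 1, with 0 called in the other direction. Of 39 values not called, 16 were called under at least 1 alternative and 23 changed sign under at least 1. With a filter at a mean of 5 FPKM, 10 members were called from 3d to 8w instead of 16, since 17 rather than 27 were tested. Leaving out 1 library at a time gave 4 to 6 calls from E18 to 3d, 14 to 18 from 3d to 8w and 17 to 21 from E18 to 8w. The same ranges for the difference between 8w and E18, in percentage points, were 41.5 to 46.2 for the Lamb2 share, 24.7 to 26.3 for the Lama2 share, 31.1 to 35.3 for the Itga7 share, −8.49 to −5.72 for the Itga5 share and −3.35 to −1.68 for the Itgb1 share.

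No pairing of the samples by replicate number was seen: deviations of same-numbered libraries correlated at −0.128 to 0.0992 over 9 pairs, and those of other pairs at −0.132 to 0.132 over 18. Deviations from a mean of 3 libraries are tied to each other, so a weak pairing could go unseen in this check. With the number as a replicate block, 5, 17 and 19 members were called in place of 6, 16 and 20. The block ended the calls of Itga6 from E18 to 3d (−0.30, adjusted p = 0.0611) and Lama5 from E18 to 8w (0.51, adjusted p = 0.0528), and called Itga1 lower from 3d to 8w (−0.28, adjusted p = 0.0488). Under the block the Lama2 share difference was 25.5 points (adjusted p = 0.0694 by exact permutation) and the Itga7 share difference 33.7 points (adjusted p = 0.0694), neither past the threshold, with the fewer assignments that a block allows.

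Precision is limited by 3 libraries per stage and, for low members, by few fragments. Itgb6 rested on 13 fragments in its lowest library and 1050 in its highest, and Itga2b on 7 to 45. Of the 27 tested members, 18 had their highest adult value in 8w replicate 2, and the same count over all tested genes was not made. The lung marker sum there was 103 FPKM. All marker sums other than those of cardiomyocytes and endothelium were highest among the adult libraries in 8w replicate 2. At 3d, replicate 1, with a lung marker sum of 0.447 FPKM, was highest for 13 members. Replicates 2 and 3, with 57.1 and 32.3 FPKM, were highest for 8 and 6. The part of any of these marker sets in the member values was not tested.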
